A study of Danio rerio with 6 samples.

Results

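The genes described here are those of zebrafish annotated as a single exon block outside the mitochondrion. A gene was taken as intron-free when its exon intervals in the deposited count tables, merged where they overlapped, formed 1 block of at least 500 bp on any sequence other than MT. The rule found 1091 of 32520 gene IDs (3.35%), with lengths of 500 to 10270 bp and a median of 1297 bp. Of these, 967 had a single exon entry. The others had several entries that merged into 1 block, so some of their transcripts may be spliced. A set of 27820 genes with more than 1 exon block served for comparison. Of the intron-free genes, 841 had a symbol, and for 636 of these the symbol was a gene name rather than a clone or locus code. RefSeq annotation, matched by name, gave a biotype for 609, and 601 of these were protein coding.

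Polyadenylated RNA was sequenced from whole larvae at 5 days after fertilisation. The groups were 3 libraries of mutants in pdcd7 (pdcd7/cx20, allele pd1215) and 3 libraries of their wild-type siblings, all in batch 1. The labels state 40 larvae without saying whether this is the number per replicate, they do not say what cx20 stands for, and they name no separate clutches for the replicates. All p-values hence rest on library-to-library spread alone, which may be technical, and any contribution of a further locus cannot be told apart from that of pdcd7.

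The minor spliceosome removes the rare U12-type introns, and PDCD7 belongs to its U11 snRNP. A transcript without introns reaches the cytoplasm without any splicing step, so its own processing needs neither spliceosome, although its regulators may be spliced. In vertebrates the intron-free class holds many replication-dependent histones, SOX, POU and forkhead transcription factors, frizzled Wnt receptors, claudins and most odorant receptors. Replication-dependent histone mRNAs end in a stem-loop rather than a poly(A) tail, so a poly(A)-selected library holds few of them.

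Library totals ranged from 75122088 to 87110177 counts. PDCD7 (ENSDARG00000038976, chromosome 7, 13684012 to 13737618, plus strand, build GRCz11 as all coordinates here) measured 21.8, 19.6 and 20.5 CPM in mutants and 14.8, 14.99 and 15.3 CPM in wild types. CPM is each gene's count over its library's total, with totals scaled by trimmed mean of M values. All 3 mutant libraries lay above the wild types (log2 change 0.46 ± 0.045 SE, adjusted p = 1.73e-06 by edgeR's quasi-likelihood test), and counts per gene do not show the lesion. Replicates differed by 4.75 to 6.65 in chi-square per degree of freedom, so none was a copy of another.

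Intron-free genes changed in both directions about as often as spliced genes of the same abundance. Of the 1091, 85 were at 0 in every library and 340 more were too low for the test. For the 666 that could be tested, 180 were called higher in mutants, 211 lower and 275 were not called (adjusted p under 0.05, edgeR). Over all 24248 genes tested, 68.6% were called, 34.5% higher and 34.1% lower. The intron-free shares were 27.0% higher and 31.7% lower. Intron-free genes more often had few counted reads, since 61.0% passed the filter on low counts against 83.7% of multi-exon genes. In both sets calls were fewer among genes with low CPM. When multi-exon genes were weighted to the abundance of the intron-free genes, 58.4% were called, against 58.7% of the intron-free genes. The weighted multi-exon shares were 29.9% higher and 28.5% lower.

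The middle of the distribution also sat close to that of other genes. The median log2 change of the tested intron-free genes was -0.03, against 0.01 for multi-exon genes, and the middle 50% ran from -0.41 to 0.33 against -0.28 to 0.29. Without the 45 tested olfactory and taste receptors, a split made after the values were seen, the intron-free counts were 177 higher and 184 lower of 621. The corresponding shares were 28.5% and 29.6%, beside weighted multi-exon shares of 30.6% and 29.3%. Changes of at least 1.5-fold were called higher in 83 intron-free genes (12.5%) and lower in 99 (14.9%), where the background over all genes was 10.7% and 11.2% and the abundance-weighted multi-exon shares were 13.1% and 12.7%. Mutant and wild-type libraries did not overlap for 418 of the 666 (62.8%), against 72.1% of all genes and 62.9% of multi-exon genes after weighting.

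**Figure D1:**
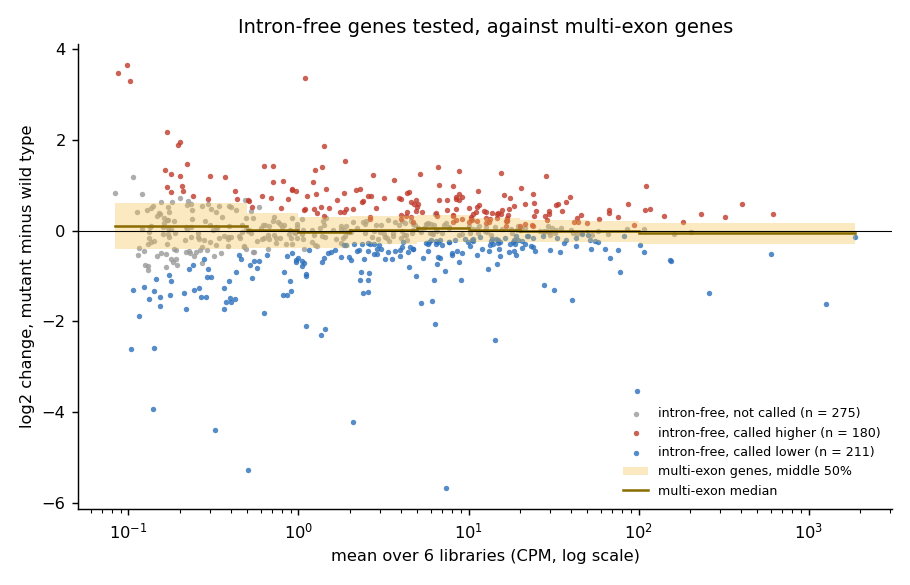
Log2 change (mutant minus wild type) of each of the 666 tested intron-free genes against its mean over 6 libraries in CPM (log axis). Points are genes coloured by call, the band is the middle 50% and the line the median of multi-exon genes in bins of CPM; the 180 higher and 211 lower genes lie on both sides of the line.

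The direction of the calls varied with abundance. Below 0.5 CPM, 20 of 167 intron-free genes were called higher and 37 lower (11.98% and 22.2%), where multi-exon genes gave 19.7% and 15.1%. Without the olfactory and taste receptors the counts there were 18 and 14 of 127. Genes this rare can pass the low-count filter through a single group, so the direction of their calls can follow from the filter. Between 10 and 20 CPM, 34 of 81 were higher and 31 lower (42.0% and 38.3%), close to the multi-exon shares of 39.7% and 36.4%. Other bins differed more. From 5 to 10 CPM, 23 of 76 were higher and 31 lower (30.3% and 40.8%), against multi-exon shares of 39.6% and 32.8%. From 50 to 100 CPM, 6 of 21 were higher and 11 lower (28.6% and 52.4%), against 38.3% and 43.4%. Above 100 CPM, 9 of 20 were higher and 8 lower (45% and 40%), against 34.2% and 46.4%.

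**Figure D2:**
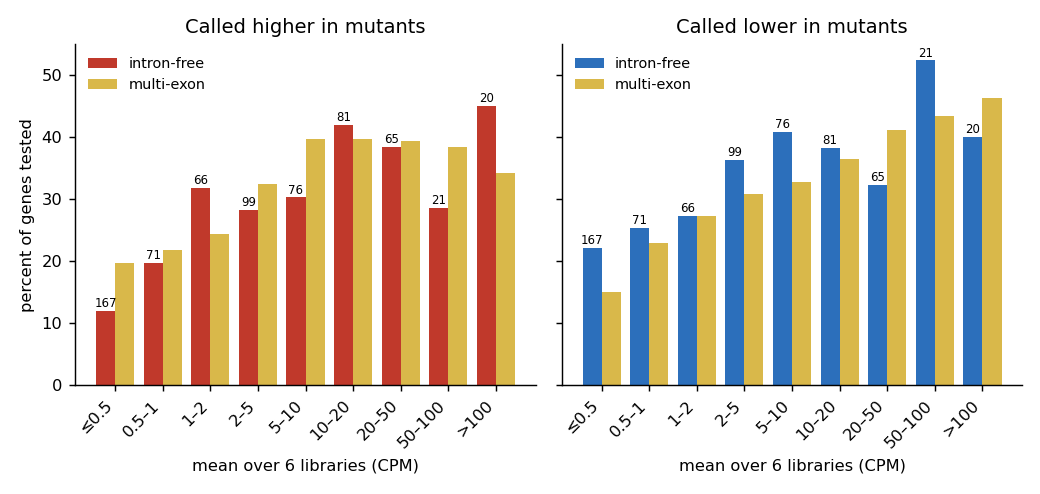
Percent of tested genes called higher (left) and lower (right) in mutants, in bins of mean CPM, for intron-free and multi-exon genes. Numbers over the bars are the intron-free genes tested in each bin; in the lowest bin the intron-free bars stand at 11.98% higher and 22.2% lower.

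Summed over all members, intron-free genes held fewer of the reads in mutants. Their summed level was 11897.9, 12341.8 and 11945 CPM in mutants and 13502.5, 13956.9 and 13801.1 CPM in the wild types. Every mutant library lay below every wild-type library, with means of 12061.5 ± 244 and 13753.5 ± 231 CPM (SD, n = 3), a difference of -12.3%. Most of it rested on the 5 members with the most counts, not all of them named here. Without them the sums were 7974 ± 126 and 8299 ± 73.9 CPM, a difference of -3.91%. Single genes weigh on that remainder too, in both directions. In mutants and wild types histh1l1 averaged 145 and 376 CPM, SYCN 15.6 and 181, and JUN 147 and 74.8. The median log2 change of tested members was -0.03, so the sum does not describe a typical member.

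The abundant members moved in different directions. Levels here are CPM, which is not divided by gene length, so they rank reads and not molecules. The long non-coding RNA malat1 (ENSDARG00000099970, chromosome 14), a nuclear transcript, measured 1679, 1820 and 1880 CPM in mutants and 1950, 1994 and 1978 in wild types. The groups did not overlap, and the change was small (log2 -0.14 ± 0.040 SE, adjusted p = 0.00814, edgeR). With library size as the only scaling, malat1 was not called (log2 -0.07, adjusted p = 0.168).

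Among RNA-binding proteins, hnrnpa0b (ENSDARG00000036162, chromosome 14, 38845674 to 38848166) rose from 317, 334 and 327 CPM in wild types to 495, 484 and 487 in mutants. It belongs to the hnRNP A0 group, which binds AU-rich elements in mammalian mRNAs, and its groups did not overlap (log2 0.58 ± 0.031 SE, adjusted p = 7.18e-09, edgeR). Its neighbour hnrnpa0l rose 1.23-fold, from 290 ± 9.10 to 357 ± 10.5 CPM. The relative hnrnpa0a, added after its values were seen and sharing exon bases with another gene, rose 1.14-fold, from 171 ± 2.92 to 195 ± 1.29 CPM. All 3 genes lie on chromosome 14, and none overlapped between groups. A further abundant row, zgc:158463, added after its values were seen, is annotated as ribosomal RNA in RefSeq and measured 693 ± 60.7 CPM in mutants and 535 ± 26.0 in wild types.

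The largest named rises were in enzymes and regulators of several kinds. The largest rises and falls were named among called genes averaging at least 5 CPM in the higher group. Their groups also had to be free of overlap, so their separation follows from the naming rule. PRMT6 (ENSDARG00000069706, chromosome 24, 29352039 to 29353521), an arginine methyltransferase of histone H3, measured 10.1, 9.55 and 9.23 CPM in mutants and 3.47, 3.53 and 3.91 in wild types. Every mutant library was more than any wild type, a rise of 2.65-fold (log2 1.41 ± 0.070 SE, adjusted p = 4.15e-09, edgeR). EXOSC6, a core subunit of the RNA exosome that degrades RNA from its 3′ end, measured 13.1, 12.4 and 11.99 CPM against 5.41, 4.99 and 4.80. This was a rise of 2.47-fold (log2 1.30 ± 0.063 SE, adjusted p = 3.09e-09, edgeR).

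TCIM (ENSDARG00000079497), a small regulator linked to Wnt signalling in human cells, rose 2.30-fold from 17.2 ± 0.732 to 39.7 ± 2.43 CPM. A second gene of that symbol, ENSDARG00000076858, was lower, at 1.90 ± 0.153 against 2.32 ± 0.139 CPM (adjusted p = 0.0228, edgeR). DCTPP1, which hydrolyses surplus dCTP, rose 2.00-fold to 8.96 ± 0.391 CPM. The row annotated cacna1db, 10.8 ± 0.679 against 5.44 ± 0.575 CPM, spans only 53464216 to 53465017 on chromosome 8, and its symbol names a calcium channel subunit.

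JUN (ENSDARG00000043531, chromosome 20, 15552657 to 15554606), the AP-1 transcription factor c-Jun, was the most abundant of the large rises. It measured 154, 148 and 139 CPM in mutants and 74.1, 74.5 and 75.8 in wild types, a tight separation with no overlap (1.97-fold, log2 0.98 ± 0.038 SE, adjusted p = 4.47e-10, edgeR). PHLDA2, an imprinted growth regulator in mammals, rose 1.91-fold to 26.7 ± 1.599 CPM. The rises of foxd1, a forkhead factor, gtf3c6, a subunit of RNA polymerase III factor TFIIIC, and FHIT, a dinucleoside triphosphate hydrolase, were 1.83-, 1.79- and 1.76-fold. The naming rule passed over 3 rises of this size with coded names, the highest being si:ch1073-358o18.3, at 22.1 ± 1.28 against 9.18 ± 0.211 CPM.

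SYCN (ENSDARG00000103687, chromosome 21, 25226558 to 25227191), the zymogen granule protein syncollin of pancreatic acinar cells, was the largest named fall. It measured 15.3, 19.4 and 12.1 CPM in mutants and 192, 178 and 173 in wild types. No mutant library came near a wild type (log2 -3.54 ± 0.12 SE, 11.6-fold lower, adjusted p = 1.46e-10, edgeR). Its neighbour sycn.1, named after its values were seen, measured 0.0258, 0.0488 and 0 CPM against 1.05, 0.821 and 1.08. Mutant counts of sycn.1 were only 2, 4 and 0, so it passed the low-count filter through its wild-type libraries alone. Of 9 genes of an exocrine pancreas list, 8 fell as well, and the list summed to 816 to 1084 CPM in mutants and 7592 to 8607 in wild types. In whole larvae, fewer cells of a type and less RNA per cell cannot be told apart.

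The kidney and gut endocytic receptor partner amn (amnionless) fell from 9.13 ± 0.494 to 3.13 ± 0.354 CPM, 2.93-fold. CDK5R2 (ENSDARG00000078671, chromosome 9), the neuronal CDK5 activator p39, measured 19.6, 23.0 and 20.3 CPM in mutants and 58.9, 61.9 and 61.3 in wild types. It was 2.90-fold lower with no overlap (log2 -1.53 ± 0.051 SE, adjusted p = 1.18e-10, edgeR). The other gene of that symbol, ENSDARG00000071011, was 1.33-fold lower, at 54.3 ± 0.742 against 72.5 ± 3.61 CPM.

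In muscle, trim63a, a relative of the sarcomeric ubiquitin ligase MuRF1, fell from 102 ± 10.3 to 54.1 ± 1.22 CPM. PPP1R3G, a glycogen-targeting subunit of protein phosphatase 1, fell from 16.8 ± 1.34 to 9.35 ± 0.859 CPM. GPR151, an orphan receptor marking habenular neurons, fell 2.00-fold to 3.26 ± 0.323 CPM. It starts within 5 kb after the end of ppp2r2ba on the same strand, and ppp2r2ba was higher in mutants (log2 2.51). The rule passed over 6 falls with coded names, led by si:dkey-65b13.13 at 4.56 ± 0.809 against 24.2 ± 1.23 CPM.

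**Figure D3:**
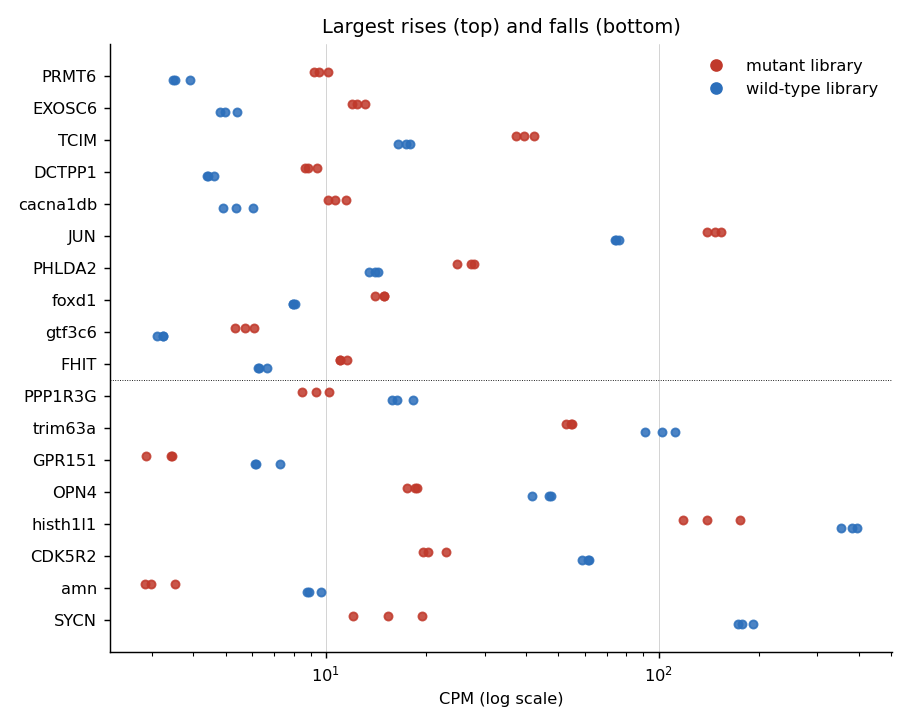
CPM (log axis) of the 10 largest named rises and 8 of the largest named falls in each library, mutant in red and wild type in blue. The naming rule admitted only genes whose groups do not overlap. SYCN has the widest gap, at 12.1 to 19.4 CPM against 173 to 192.

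Grouped by symbol into 22 families, 438 intron-free genes had a family, and 16 families had at least 5 tested members. Their counts stand beside the background of 34.5% of all genes called higher and 34.1% lower. In these 16 families the median log2 change lay on the same side of 0 as that of the spliced relatives, except for AP-1 and MAF factors (0.09 against -0.05) and immediate early and feedback genes (0.02 against -0.12).

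SOX factors, HMG-box regulators of neural progenitors and other stem cells, were mostly higher. Of 10 tested, 7 rose and 2 fell (median log2 0.34). Among 18 spliced SOX genes the counts were 11 and 3 and the median 0.45. SOX3 (ENSDARG00000053569, chromosome 14), a factor of neural progenitors, measured 42.4, 38.4 and 40.2 CPM in mutants and 26.4, 27.0 and 27.4 in wild types. Its groups were far apart (log2 0.58 ± 0.040 SE, adjusted p = 6.46e-08, edgeR), while si:ch211-143l19.3, the gene around it on the same strand, was not called (log2 -0.23, adjusted p = 0.107).

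SOX11 (ENSDARG00000095743) rose from 96.9 ± 3.35 to 135 ± 5.41 CPM, and SOX4, which acts with it in differentiating neurons, rose 1.29-fold from 204 ± 5.43 to 263 ± 8.54. SOX4 shares exon bases with another gene, and read pairs there were not counted. SOX14, a marker of inhibitory neuron precursors in the midbrain, fell from 23.2 ± 1.11 to 17.9 ± 0.671 CPM. Summed over the family, the level was 724 ± 14.5 CPM in mutants and 574 ± 18.3 in wild types. In a list drawn up for neural progenitors, none of its genes intron-free, 10 of 17 rose and 3 fell (median log2 0.13). The falls were DES (ENSDARG00000005221, log2 -0.72), VIM (ENSDARG00000010008, log2 -0.61) and DLD (log2 -0.21). Matched by symbol, DES names a muscle filament gene and DLD a metabolic enzyme gene, so the list is not purely one of progenitor genes.

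Frizzled receptors, which bind Wnt ligands at the cell surface, were higher in 7 of 8 tested genes and called lower in 0, with a median of 0.35 against 0.17 for 6 spliced frizzled genes. Those 6 gave 3 rises and 1 fall. FZD7 (ENSDARG00000060004, chromosome 9) measured 106, 106 and 101 CPM in mutants and 67.2, 70.1 and 71.0 in wild types, with no overlap (log2 0.59 ± 0.034 SE, adjusted p = 1.3e-08, edgeR). FZD2 rose 1.38-fold, from 56.3 ± 0.616 to 77.6 ± 2.52 CPM. FZD10 rose from 21.6 ± 0.224 to 27.0 ± 0.428 CPM, and PIWIL1, the gene around it on the same strand, was also higher (log2 0.28). The gene without a call was FZD8 (ENSDARG00000038569), at 3.45 CPM in mutants and 3.74 in wild types.

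Claudins, the strand-forming proteins of tight junctions, gave 7 rises and 2 falls among 14 tested (median log2 0.29). Spliced claudins were more evenly split, with 8 rises and 7 falls of 25 and a median of 0.06. The claudin cldne (ENSDARG00000043128, chromosome 15) measured 122, 130 and 125 CPM in mutants and 91.1, 94.5 and 91.9 in wild types, with no overlap (1.36-fold, adjusted p = 1.21e-07, edgeR). Its relative cldnb rose from 58.3 ± 0.793 to 76.0 ± 1.87 CPM, and cldn23.1 rose 1.34-fold.

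CLDN5 (ENSDARG00000014059), the claudin of endothelial barriers, was lower at 12.9 ± 0.120 against 14.7 ± 0.947 CPM, a call lost with library size as the only scaling (adjusted p = 0.0570). Epidermal genes, where several claudins are expressed, rose in 9 of 12 listed and fell in 1, and summed to 22826.5 to 23227.5 CPM in mutants and 18846 to 19638.5 in wild types. Listed erythrocyte and endothelial genes fell in 5 of 10 and rose in 0, where 34.1% of all genes tested fell. The falls were both SLC4A1 genes and alas2, of erythrocytes, and the endothelial cdh5 (log2 -0.12) and pecam1a (log2 -0.24). The endothelial genes tek, kdrl and FLI1 were not called (log2 -0.11, 0.07 and 0.09). The part of these tissues in the claudin values was not tested.

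Forkhead factors were split. Of 20 tested, 9 rose and 4 fell (median log2 0.23), where 39 spliced forkhead genes gave 16 and 11 with a median of 0.00. Besides foxd1, the named rises were foxc1b and FOXC1. The gene foxc1b, which acts in vascular and eye mesenchyme, measured 22.3, 22.1 and 21.2 CPM in mutants and 13.5, 13.1 and 13.2 in wild types. That is 1.65-fold with no overlap (adjusted p = 9.94e-09, edgeR), and its paralogue FOXC1 rose 1.45-fold. The telencephalic factor foxg1b fell from 125 ± 6.35 to 90.6 ± 3.68 CPM.

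Summed forkhead levels did not separate the groups, at 281 ± 9.01 CPM in mutants and 281 ± 9.54 in wild types. The lens factor foxe3, named after its values were seen, measured 0.296, 0.293 and 0.245 CPM in mutants and 0.848, 0.692 and 1.39 in wild types (log2 -1.82 ± 0.28 SE, adjusted p = 9.36e-05, edgeR). Its wild-type values vary, and all exceed the mutants.

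Among connexins, gap junction proteins, 2 rose and 2 fell of 7 tested, beside 5 and 11 of 26 spliced relatives. GJA3, a connexin of lens fibres in mammals, measured 0.489, 0.574 and 0.512 CPM in mutants and 2.38, 1.76 and 2.94 in wild types (log2 -2.16 ± 0.20 SE, adjusted p = 8.85e-07, edgeR). The connexin gjd5, named after its values were seen, stood at 0.0258, 0.0488 and 0.0111 CPM in mutants against 0.643, 0.436 and 0.772. Both have low counts, and the groups of GJA3 did not overlap. The mutant counts of gjd5 were 2, 4 and 1, so the size of its change rests on few counts. It passed the low-count filter through its wild-type libraries alone, so its separation can follow from the filter.

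All 12 tested genes of a lens list fell, and the list summed to 14.1 to 33.4 CPM in mutants and 423 to 701 in wild types. The part of the lens in the values of foxe3, GJA3 and gjd5 was not tested. The connexin gja9b rose from 3.78 ± 0.203 to 4.74 ± 0.332 CPM inside si:zfos-1714f5.4 on the same strand, which was not called (log2 0.66, adjusted p = 0.230). The rise of gjb10 was 1.15-fold at the edge of the threshold (adjusted p = 0.0455, edgeR), and the call was lost under 7 alternatives, with adjusted p from 0.0539 with no filter to 0.187 without mutant replicate 2.

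POU factors of neural development fell in 3 of 5 tested and rose in 0 (median log2 -0.21), beside 5 falls and 2 rises of 11 spliced POU genes (median -0.03). POU3F2, a Brn-2 type regulator of neurons, measured 45.3, 47.3 and 43.2 CPM in mutants and 59.2, 59.5 and 60.4 in wild types. The gap exceeds the spread of either group (1.32-fold lower, adjusted p = 8.07e-07, edgeR). For bHLH factors, which drive neurogenesis, 2 of 8 fell and 0 rose. These were BHLHE23 at 19.1 ± 0.0574 against 22.3 ± 0.697 CPM, and atoh7, needed for retinal ganglion cells, at 2.48 ± 0.140 against 3.06 ± 0.136. Spliced bHLH genes gave 26 rises and 10 falls of 51 (median log2 0.20 against 0.03).

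AP-1 and MAF factors, leucine zipper proteins, rose in 4 of 7 and fell in 1, while their spliced relatives rose in 4 of 20 and fell in 7. Besides JUN, JUNB (ENSDARG00000074378) rose 1.31-fold and mafbb 1.29-fold. JUND, in contrast, measured 61.6, 67.5 and 64.7 CPM in mutants and 85.5, 88.8 and 87.6 in wild types, 1.35-fold lower with no overlap (adjusted p = 4.4e-07, edgeR). The family summed to 337 ± 8.38 CPM in mutants and 277 ± 1.98 in wild types. Without JUN the direction of the sum turned, at 190 ± 6.18 CPM in mutants and 203 ± 1.86 in wild types.

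Immediate early and feedback genes rose in 2 of 7 and fell in 3, with ier2b at 12.4 ± 0.561 against 18.3 ± 0.816 CPM, ier2a at 14.5 ± 0.148 against 20.2 ± 0.864, and IER5L at 47.9 ± 2.05 against 55.3 ± 1.93. The BMP antagonist nog2 rose 1.22-fold. In smaller families, 2 of 3 C/EBP factors rose, with CEBPB (named after its values were seen) going from 29.6 ± 0.464 to 49.5 ± 2.88 CPM. Among zinc finger factors 2 of 3 rose, and of 2 heat shock proteins 1 fell. A list of heat shock regulators and chaperones, none of them intron-free, gave 7 rises and 4 falls of 12.

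Histones moved both ways. Of 14 intron-free histone genes 12 were tested, and 5 rose and 4 fell (median log2 0.06). Spliced histone genes gave 5 rises and 3 falls of 8. Summed, the intron-free histone genes were lower, at 794 ± 60.5 CPM in mutants and 1146 ± 35.9 in wild types. Spliced histone genes summed to 1679 ± 43.2 and 1677 ± 25.8 CPM. The intron-free rises were in H2A-type and H3 genes with mean levels of at most 11.3 CPM in mutants. The H3 gene h3c13a (ENSDARG00000068941, chromosome 25, 35062353 to 35063658) measured 2.32, 2.00 and 1.67 CPM in mutants and 0.219, 0.154 and 0.202 in wild types. Every mutant library exceeded every wild type, 10.3-fold on average (log2 3.37 ± 0.20 SE, adjusted p = 2.17e-08, edgeR).

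Its chromosomal neighbour hist2h3c rose 2.50-fold, from 0.709 ± 0.221 to 1.78 ± 0.0928 CPM. The H2A gene hist1h2a2 on chromosome 7 rose from 0.0609 ± 0.0198 to 0.278 ± 0.0524 CPM, from wild-type counts of only 5, 3 and 6. It passed the low-count filter through its mutant libraries alone. Copies of core histones are near identical, and read pairs that align to several of them were not counted, so levels of single copies are uncertain. The falls were in the 4 most abundant genes, among them H1-10, h2ax1 and hist2h2l.

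The histone variant gene h2ax1, whose product marks DNA breaks when phosphorylated, fell 1.57-fold, from 186 ± 1.30 to 118 ± 5.69 CPM, and the linker histone H1-10, named after its values were seen, fell from 192 ± 3.798 to 120 ± 16.7 CPM. The gene histh1l1, whose symbol lay outside the family pattern, measured 119, 176 and 139 CPM in mutants and 394, 354 and 380 in wild types. It was 2.60-fold lower (log2 -1.38 ± 0.11 SE, adjusted p = 1.83e-07, edgeR) and varied more between mutants than between wild types. Lists of other genes for S phase and for histone supply and 3′ end processing rose in 27 of 28 and in 16 of 22, with 0 and 1 falls.

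**Figure D4:**
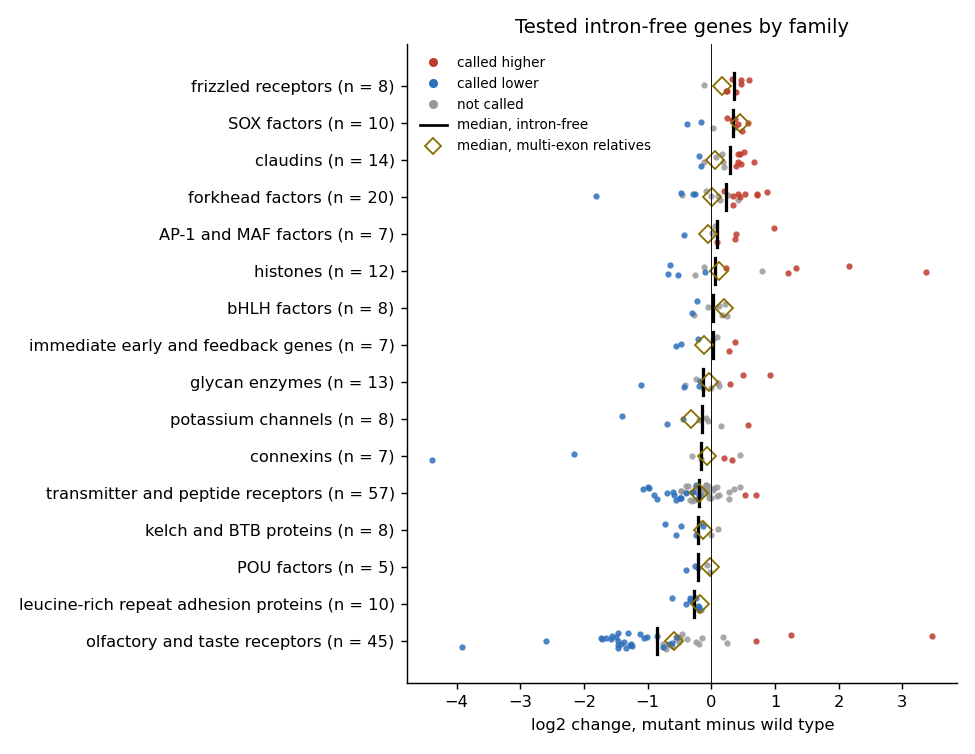
Log2 change (mutant minus wild type) of tested intron-free genes in the 16 families with at least 5, points coloured by call. Black bars are intron-free medians and open diamonds the medians of spliced relatives; frizzled receptors have the highest median, 0.35, and olfactory and taste receptors the lowest, -0.85.

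Leucine-rich repeat adhesion proteins, which organise synapses and axons, were lower in 9 of 10 tested and called higher in 0 (median log2 -0.27). Of 89 spliced relatives, 46 fell and 17 rose (median -0.18). SLITRK5, named after its values were seen, fell 1.53-fold, from 8.23 ± 0.761 to 5.39 ± 0.291 CPM. LRRTM1 (ENSDARG00000052713, chromosome 1), a postsynaptic partner of neurexins, measured 36.6, 37.0 and 39.0 CPM in mutants and 45.3, 48.1 and 49.4 in wild types. Its groups did not overlap (1.27-fold lower, adjusted p = 7.81e-06, edgeR), and SLITRK3 and LINGO1 fell 1.26- and 1.23-fold. The 10 genes summed to 171 ± 1.75 CPM in mutants and 209 ± 3.67 in wild types.

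Transmitter and peptide receptors, all coupled to G proteins, fell in 18 of 57 tested and rose in 2, with a median of -0.20 beside -0.19 for 202 spliced receptors (85 falls, 27 rises). After GPR151, the clearest were GPR52, a receptor of striatal neurons in mammals, at 4.26 ± 0.273 against 6.47 ± 0.494 CPM, and GPR173 at 12.6 ± 0.424 against 15.4 ± 0.313. GPR52 lies inside rabgap1l on the same strand, which was lower by less (log2 -0.27). CXCR4, the chemokine receptor that guides migrating cells, went the other way, at 4.02, 4.198 and 3.61 CPM in mutants and 2.34, 2.38 and 2.52 in wild types. All mutants exceeded all wild types (1.63-fold, adjusted p = 1.33e-05, edgeR). Macrophage and neutrophil genes, some of which are expressed beside CXCR4, fell in 5 of 13 tested (38.5%) and rose in 0. Over all genes tested, 34.1% fell and 34.5% rose. Several entries of that list are copies of MFAP4, none of them called.

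Kelch and BTB proteins, adaptors of ubiquitin ligases and receptor complexes, fell in 5 of 8 and rose in 0 (median log2 -0.21). KCTD4 measured 11.5, 10.4 and 11.1 CPM in mutants and 17.8, 18.5 and 18.5 in wild types, 1.66-fold lower with no overlap (adjusted p = 3.9e-08, edgeR). KCTD12 and KCTD16, auxiliary subunits of GABA-B receptors, fell 1.46- and 1.39-fold. Potassium channels fell in 3 of 8 and rose in 1, where 80 of 120 spliced channel genes fell. The inward rectifiers kcnj12a and KCNJ2 (ENSDARG00000104389) were lower, at 0.445 ± 0.141 against 1.18 ± 0.0586 CPM and at 1.05 ± 0.102 against 1.70 ± 0.431.

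The paralogue KCNJ2 (ENSDARG00000019418) rose from 9.31 ± 0.457 to 13.8 ± 0.856 CPM, so the 2 genes of that symbol moved in opposite directions. KCNA2, a delayed rectifier of axons, fell 1.36-fold. Protocadherins fell in 2 of 3 tested, and the single immunity GTPase fell. In a list of neuronal genes, none of them intron-free, 18 of 19 fell and 0 rose, and the list summed to 2949 to 3082 CPM in mutants and 3962 to 4093 in wild types. How far neuronal RNA content enters the values of these families was not tested.

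Among glycan enzymes, sulfotransferases and glycosyltransferases of the Golgi, 3 rose and 4 fell of 13 tested (median log2 -0.14). CHST12 (ENSDARG00000077198), a chondroitin sulfotransferase, fell from 1.22 ± 0.201 to 0.572 ± 0.139 CPM. It starts within 5 kb after the end of si:dkey-26i13.8 on the same strand, which was lower by a similar amount (log2 -1.14 against -1.102). B3GNT2 fell 1.34-fold, b3gnt7l rose 1.41-fold, and CHST2 (ENSDARG00000058585) fell 1.14-fold, a call lost with library size as the only scaling (log2 -0.12, adjusted p = 0.05003).

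OPN4 (ENSDARG00000007553, chromosome 2, 32843133 to 32846324), the melanopsin of light-sensing neurons, was also among the largest falls. It measured 17.5, 18.8 and 18.6 CPM in mutants and 41.6, 47.6 and 46.7 in wild types, 2.48-fold lower with no overlap (log2 -1.31 ± 0.051 SE, adjusted p = 4.75e-10, edgeR). It starts within 5 kb after the end of pxdc1a on the same strand, whose log2 change was also -1.31. Of 16 listed rod photoreceptor genes, none of them intron-free, 15 fell and 1 rose, with a median of -1.47. The list summed to 493 to 517 CPM in mutants and 968 to 1036 in wild types. Much of that sum lay in gnb1b, which fell little, at 248 CPM in mutants and 278 in wild types (log2 -0.16). The part of the retina's cell makeup in the fall of OPN4 was not tested.

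Olfactory and taste receptors were the largest family, with 212 intron-free genes, and the one whose members were most often too low to test. In all 28 were at 0 in every library and 45 were tested, of which 27 fell and 3 rose (median log2 -0.85). Among spliced relatives, 24 of 50 fell and 3 rose (median -0.59). The low-count filter keeps a gene with enough counts in 3 libraries, so a rare gene can be tested through its higher group alone. The direction of calls among the rarest receptors can hence follow from the filter, whereas the sum over the family does not depend on it. Summed over all 212 genes, tested or not, the level was 13.5, 13.4 and 13.1 CPM in mutants and 24.3, 24.8 and 23.3 in wild types. The groups were far apart against the spread within each, with means of 13.4 ± 0.189 and 24.1 ± 0.747 CPM, a difference of -44.6%. Spliced members summed to 16.4 ± 1.105 and 23.9 ± 0.780 CPM.

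The odorant receptor or42a4 (ENSDARG00000105708, chromosome 10, 36212575 to 36214582) measured 1.57, 1.45 and 1.32 CPM in mutants and 4.07, 3.79 and 3.18 in wild types. It was 2.54-fold lower with no overlap (adjusted p = 5.08e-07, edgeR). Among rarer receptors, or70a3 fell from 0.627 ± 0.0648 to 0.220 ± 0.0137 CPM and or80a10 from 0.561 ± 0.0449 to 0.189 ± 0.0164. The bitter taste receptor tas2r200.1 was called higher, at 0.167, 0.183 and 0.133 CPM against 0.0273, 0.0128 and 0, a gap that rests on few counts. It passed the low-count filter through its mutant libraries alone. OMP (ENSDARG00000032380), olfactory marker protein of mature olfactory neurons and itself intron-free, fell from 2.93 ± 0.326 to 1.90 ± 0.110 CPM. A second gene of that symbol, ENSDARG00000105218, which is not intron-free, fell from 10.9 ± 0.680 to 3.02 ± 0.116 CPM.

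In a list of 8 olfactory neuron genes, drawn up after the data were seen and including both OMP genes, all 8 fell. The list summed to 63.3 to 65.9 CPM in mutants and 90.7 to 95.8 in wild types. Its gene cngb1a, at 20.8 CPM in mutants and 23.8 in wild types, also stands in the rod photoreceptor list. The part of olfactory neuron number in the receptor values was not tested. Receptor genes are similar in sequence, and read pairs with several alignments were not counted, so single genes are less certain than the sum.

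**Figure D5:**
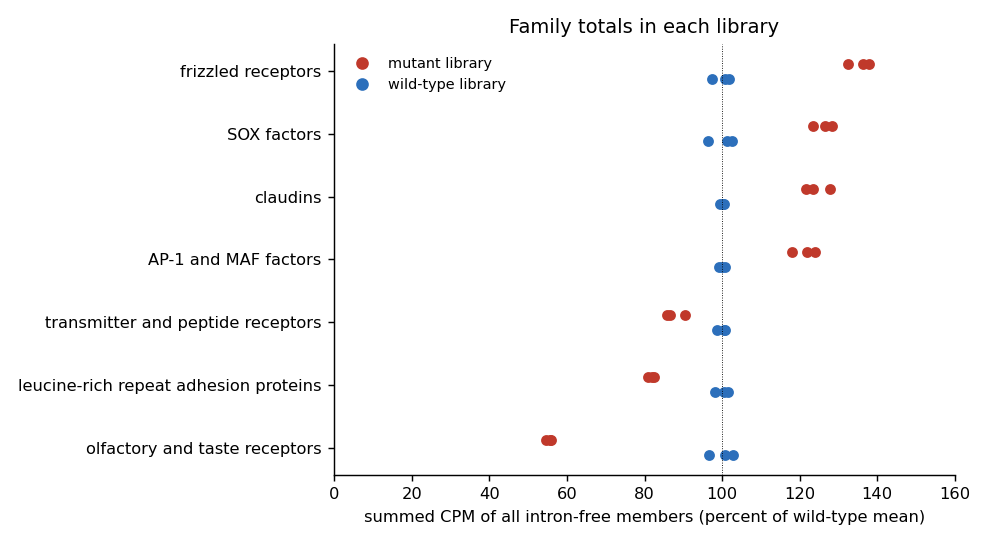
Summed CPM of all intron-free genes of 7 families in each library, as percent of the wild-type mean, mutant in red and wild type in blue. Frizzled, SOX, claudin and AP-1 and MAF sums lie above 100 in every mutant library (the last only with JUN), and the other 3 families lie below, with olfactory and taste receptors lowest.

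Position relative to other genes was described because intron-free genes can lie within the introns of others. Of the 1091, 98 lay inside the span of a multi-exon gene on the same strand, 117 inside one on the other strand, 115 started within 5 kb after the end of one on the same strand, and 761 did none of these. Counting was by strand and over exons, so RNA of an unspliced same-strand host that covers a nested gene would be counted for it. That share was not measured. Of the 51 nested same-strand genes tested, 14 were higher and 24 lower (27.5% and 47.1%, median log2 -0.19). Without olfactory and taste receptors the counts were 14 and 15 of 41 (34.1% and 36.6%, median -0.08). Of 63 opposite-strand genes 17 were higher and 17 lower, and of 472 genes standing apart 134 and 139 (28.4% and 29.4%). Over all genes tested the shares were 34.5% higher and 34.1% lower, and for abundance-weighted multi-exon genes 29.9% and 28.5%.

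Genes behind the end of another were higher in 15 of 80 and lower in 31 (18.75% and 38.75%), beside 34.5% and 34.1% of all genes tested. For 11 nested same-strand pairs both gene and host were called, 8 of them in the same direction. For genes after a gene end this was 21 of 34, and for opposite-strand pairs 6 of 10. Nested pairs can share a host, and 4 genes called lower lay in pcdhb, itself lower (log2 -0.20, adjusted p = 0.00874, edgeR). Such pairs are not independent, and no expected share was computed. The 98 nested same-strand genes lay in 45 hosts, and 7 hosts with at least 3 each held 58 of them. The annotated span of DUSP19 on chromosome 7 (5885800 to 6680628), the chromosome of PDCD7, held 15, of which 7 were tested. In that span 4 rose and 1 fell, while DUSP19 itself was not called (log2 0.09, adjusted p = 0.151, edgeR).

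Among them the coded gene zgc:110425 measured 2.11, 2.48 and 2.09 CPM in mutants and 0.506, 0.718 and 0.607 in wild types, a rise of 3.63-fold, and hist1h2a2 lies in the same span. On chromosome 10 the span of si:ch211-215a9.12 (36201194 to 36381043) also held 15, and 6 of 7 tested fell. The host was near 0 in both groups. The falls include or80a5, from 0.600 ± 0.0877 to 0.201 ± 0.0266 CPM. The receptor or80a7 was at 0, 0.0244 and 0.0222 CPM in mutants and 0.137, 0.449 and 0.202 in wild types. Its mutant counts were 0, 2 and 2, so it passed the low-count filter through its wild-type libraries alone.

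Intron-free genes were unevenly spread over chromosomes. Chromosome 10 held 127, of which 83 were olfactory and taste receptors, followed by chromosome 7 with 81, 15 with 74, 21 with 68 and 20 with 62. On chromosome 7, with 0 such receptors among them, 20 of 49 tested were higher and 7 lower (40.8% and 14.3%, median log2 0.34), where all genes of the chromosome gave 37.6% and 33.4%. PDCD7 itself lies on chromosome 7, and the part of sequence linked to the mutation in these values was not tested. On chromosome 21, where 36 were such receptors, 4 of 35 were higher and 18 lower (11.4% and 51.4%), where all genes of the chromosome gave 31.3% and 35.01%. Other chromosomes rich in such receptors were less skewed. Chromosome 10 gave 15.2% higher and 48.5% lower (all genes 33.3% and 37.8%). Chromosome 15, with 45 receptors, gave 22.9% and 34.3% (all genes 29.3% and 36.7%), and 20, with 30, gave 19.2% and 30.8% (34.5% and 34.3%).

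Shares by length were as follows. Of genes under 1000 bp, 43 of 137 tested were higher and 36 lower (31.4% and 26.3%). They held 33 rises of at least 1.5-fold (24.1%) and 20 such falls (14.6%). From 1000 to 1999 bp the counts were 86 and 109 of 340, with 33 such rises (9.71%) and 48 such falls (14.1%). At 2000 bp or more they were 51 and 66 of 189, with 17 such rises (8.99%) and 31 such falls (16.4%). Over all genes tested, 34.5% were higher and 34.1% lower, and 10.7% and 11.2% by at least 1.5-fold. The length bands were not matched for abundance, on which such shares depend. Among multi-exon genes of up to 0.5 CPM, 19.3% rose and 14.5% fell by at least 1.5-fold. Just inside the length limit, 39 genes of 500 to 599 bp gave 5 higher and 8 lower of 20 tested. Just outside it, 57 intron-free genes of 400 to 499 bp gave 10 and 5 of 27. Same-strand exons of another gene overlapped 24 of the 1091, 13 of them tested, and shared read pairs were not counted there.

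A few large changes lay among low or uneven genes, named after their values were seen. The secreted C1q-like gene c1qtnf13 measured 0.270, 0.244 and 0.133 CPM in mutants and 3.58, 3.90 and 4.35 in wild types (log2 -4.204 ± 0.18 SE, adjusted p = 8.71e-10, edgeR). The groups were far apart. In contrast si:dkey-153m14.1, with the most negative log2 change of any intron-free gene tested (-5.67), rested on wild-type replicate 2. It measured 0.142, 0.293 and 0.400 CPM in mutants and 0.178, 42.9 and 0.240 in wild types, and the groups overlapped although the gene was called (adjusted p = 0.0113, edgeR).

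The 425 untested genes together held 10.2 ± 0.232 CPM in mutants and 11.5 ± 0.446 in wild types.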

How the data were processed

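RNA-seq counts from 6 libraries were used. Per the submitters' processing notes, reads were trimmed with Trimmomatic 0.38 and aligned with STAR 2.7.11. Per the file headers, the authors counted read pairs over exons on the reverse strand with featureCounts 1.6.3, on the GRCz11 annotation of Ensembl, and the deposited values are raw counts per gene. Pairs with several alignments, or shared by overlapping genes, were not counted, so copies alike in sequence lose reads.

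Exon intervals from the count tables were merged per gene. Symbols were matched for 29201 of 32520 IDs. Genes were filtered with filterByExpr, scaled by TMM and tested with edgeR 4.0.16 (glmQLFit and glmQLFTest, R 4.3.3) over all 24248 genes, with Benjamini-Hochberg adjustment at 0.05. SE is the log2 change over the square root of F. A floor of 3 counts is 0.0334 to 0.0410 CPM and covers counting error only.

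Named genes were the 10 largest called rises and falls at 5 CPM or more with a non-code symbol, the 5 most abundant, up to 3 in the majority direction and 1 in the other per family of at least 5 tested, and 5 nested genes. Members, 22 families and 12 lists (S phase, histone supply, rod, neuron, neural progenitor, epidermis, heat shock, lens, pancreas, macrophage and neutrophil, erythrocyte and endothelium, olfactory neuron) were chosen with earlier results of these data known. The olfactory symbol pattern was corrected after values were seen. Some genes the rule selects are not reported here.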

Additional observations from a re-analysis of the deposited data

How the results depend on the processing

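The counts of intron-free genes called stayed within 1.5 times of 180 higher and 211 lower under every alternative run, from 137 (length of at least 1000 bp) to 217 higher and from 156 to 233 lower. Leaving out each replicate gave 165 to 180 higher and 197 to 214 lower. DESeq2 gave 159 and 191, limma-voom 175 and 210, and library size alone 217 and 183. Upper quartile scaling gave 199 and 199, and a mean of at least 1 CPM gave 150 and 156. The excess of falls over rises was hence not stable to scaling, and it reversed with library size alone. A robust prior in edgeR, added after the data were seen because it gave counts closer to an earlier account of them, gave 186 and 212. The fit without it is reported, as designed.

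The median log2 change of -0.03 lay near 0 and its sign was not stable. It was 0.00637 with upper quartile scaling, 0.0376 with library size only, -0.0664 with no filter, -0.0118 at a mean of at least 1 CPM, -0.0431 with DESeq2, -0.00213 and -0.0553 with length limits of 300 and 1000 bp, and -0.00433 without olfactory and taste receptors (added after the data were seen). Leaving out each replicate gave -0.0488 to -0.0259. These scalings moved the median of all genes by 0.041 (upper quartile) and 0.072 (library size only). The ratio of CPM held by intron-free genes, 0.877, was 0.922 with library size only and 0.961 without the 5 most abundant, and 0.867 to 0.884 leaving out each replicate. Of 1207 recomputed values for 81 named genes, 1197 kept direction and call, 10 lost the call (CHST2, CLDN5, malat1 and gjb10) and 0 reversed. The log2 ratio of the summed AP-1 and MAF levels, 0.28, reversed to -0.0961 without JUN, a split made after the data were seen. With the replicate block the counts were 177 and 211 and the median -0.0402. Same-numbered libraries did not deviate together (r = 0.0207, -0.0413 and -0.0023), so the numbers were not taken to pair samples. Depth limits the 340 genes above 0 that could not be tested.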
